A study of Mus musculus with 6 samples.

Results

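The 67 genes described here belong to families of enzymes known for writing or erasing acetyl and methyl groups on histones or methyl groups on DNA, although some members act on other proteins. They were every row, of 13886 genes in the log2 CPM table, whose symbol belonged to the Hdac, Sirt, Kat, Kmt, Kdm, Dnmt, Tet, Ezh or Setd families, together with *Crebbp* and *Ep300*. No measured value was used to choose them. The reference holds 70 such symbols, and *Dnmt3b*, *Dnmt3l* and *Kdm5d* were not listed in the table, which the authors limited by expression, so their levels are not known from it. By role the 67 were 11 zinc-dependent histone deacetylases, 7 sirtuins, 10 lysine acetyltransferases, 18 lysine methyltransferases, 16 lysine demethylases, 2 DNA methyltransferases and 3 TET dioxygenases.

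RNA was from the medial amygdala (MeA) of female Kiss1Cre+/Rpl22HA+/+ mice, in which Cre made under *Kiss1* switches on an HA tag on the ribosomal protein Rpl22, so that pulling down the tag collects ribosome-bound mRNA of cells where Cre has acted. Every mouse had its ovaries removed (OVX) when 8 weeks old, had estradiol (E2) for 4 days as a pre-treatment and then 7 days without it. The E2 group then had E2 for 5 days and the OVX group had none. Each group had 3 libraries, each 1 pool of punches from 4 mice, and no pulldown from mice without Cre was analysed here.

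Acetyltransferases add acetyl groups to histone lysines, which loosens chromatin, and deacetylases and the NAD-dependent sirtuins remove them. Methyltransferases and demethylases set methyl marks that, depending on the lysine, go with active or with silent genes, while DNA methyltransferases put methyl groups on cytosines and TET enzymes oxidise them. The estrogen receptor acts on its target genes partly by drawing acetyltransferases such as Ep300 and Crebbp, or deacetylase complexes, to DNA. Neurons carry much DNA methylation laid down by Dnmt3a after birth, and *Kiss1* itself is known as a gene whose chromatin is altered by estradiol in other brain regions.

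None of the 67 genes passed the threshold (adjusted p under 0.05 in limma, over all genes), whereas 40 of all 13886 genes (0.288%) did. At an unadjusted p under 0.05 in the same limma fit there were 8 of the 67 (11.9%), beside 8.56% of all genes. With voom weights on rebuilt counts 0 of the 67 passed and 8 again had such a p, beside 8.48% of all genes. The largest differences were small. They ran from a log2 difference (E2 minus OVX) of -0.37 for *Kmt2a*, a methyltransferase of active promoters, to 0.31 for *Tet1*, a methylcytosine dioxygenase, and the smallest adjusted p was 0.285, for the deacetylase gene *Hdac7*. For each of the 67 genes the 95% interval of the difference lay within 1 log2 unit of 0, that is within a 2-fold change either way, as it did for 90.6% of all genes. For 60 of them (89.6%, against 70.3% of all genes) it lay within 0.5. These shares were not matched for level: the median log2 CPM was 5.84 for the 67 and 4.76 for all genes. The median SE was 0.088 and 0.107.

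The libraries had scaled sizes of 28.1M to 34.2M reads. *Kiss1*, as its more abundant gene model, was at a log2 CPM of 2.29, 1.82 and 1.13 in the OVX and 3.72, 3.80 and 3.45 in the E2 libraries (adjusted p = 0.00475 in limma). The log2 CPM of *Cck* was 8.95, 8.88 and 9.07 in OVX and 9.16, 9.34 and 9.11 in E2, so that the groups did not overlap. Its difference was 0.24 ± 0.07 (SE, adjusted p = 0.295 in limma). The authors found *Cck* in most MeA *Kiss1* cells, and also in the RNA of whole MeA punches. The estrogen receptor gene *Esr1* was at 4.93 to 5.30 in OVX and 4.35 to 4.62 in E2. Markers of other cells were present too: the summed CPM of 6 oligodendrocyte markers was 1563 to 2195 in OVX and 1711 to 2408 in E2. That of 6 genes listed for excitatory forebrain neurons outside the MeA was 880.3 to 1137 in OVX and 668.2 to 871.1 in E2, lower with E2 for 6 of 6 genes. Most of that sum was *Slc17a7*, at a log2 CPM of 9.50 to 9.91 in OVX and 9.07 to 9.50 in E2. The authors count *Slc17a7* (*Vglut1*) among the transcripts of MeA *Kiss1* cells, so it need not come from other cells. In pooled tissue, fewer cells of a type and less RNA per cell cannot be told apart.

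Promoter sequences are shown for 4 genes on which the results turn: *Hdac7* and *Dnmt3a*, the genes with the smallest p in each direction, *Kmt2a*, with the lowest difference, and *Hdac11*, the most abundant per kilobase. Windows run from 250 bases before to 50 after a RefSeq transcription start, 5′ to 3′ on the gene's strand, in GRCm38.p6. In *Hdac7* and *Dnmt3a* capitals mark a half-site of the estrogen response element (AGGTCA, or TGACCT on the other strand), and in *Kmt2a* and *Hdac11* they mark every CG, the dinucleotide that DNA methyltransferases act on.
Hdac7, chr15:97814814-97815113, minus strand: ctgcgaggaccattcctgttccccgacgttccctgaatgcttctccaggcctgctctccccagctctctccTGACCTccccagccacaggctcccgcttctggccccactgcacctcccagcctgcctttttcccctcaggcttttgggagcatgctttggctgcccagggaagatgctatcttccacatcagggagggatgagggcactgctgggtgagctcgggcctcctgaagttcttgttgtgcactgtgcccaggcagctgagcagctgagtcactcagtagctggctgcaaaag
Dnmt3a, chr12:3891494-3891793, plus strand: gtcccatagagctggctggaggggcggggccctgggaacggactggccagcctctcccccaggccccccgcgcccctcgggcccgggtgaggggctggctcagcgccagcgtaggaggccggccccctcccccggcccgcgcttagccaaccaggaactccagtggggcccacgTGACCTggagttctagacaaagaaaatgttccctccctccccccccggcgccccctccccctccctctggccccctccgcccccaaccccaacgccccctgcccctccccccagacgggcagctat
Kmt2a, chr9:44881240-44881539, minus strand: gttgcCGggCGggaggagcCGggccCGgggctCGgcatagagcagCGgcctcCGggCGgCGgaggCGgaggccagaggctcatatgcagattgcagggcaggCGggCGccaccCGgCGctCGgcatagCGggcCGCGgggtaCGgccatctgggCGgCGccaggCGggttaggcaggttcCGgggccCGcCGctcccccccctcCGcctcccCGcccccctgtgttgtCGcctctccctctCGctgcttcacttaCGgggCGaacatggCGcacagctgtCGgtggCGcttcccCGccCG
Hdac11, chr6:91156565-91156864, plus strand: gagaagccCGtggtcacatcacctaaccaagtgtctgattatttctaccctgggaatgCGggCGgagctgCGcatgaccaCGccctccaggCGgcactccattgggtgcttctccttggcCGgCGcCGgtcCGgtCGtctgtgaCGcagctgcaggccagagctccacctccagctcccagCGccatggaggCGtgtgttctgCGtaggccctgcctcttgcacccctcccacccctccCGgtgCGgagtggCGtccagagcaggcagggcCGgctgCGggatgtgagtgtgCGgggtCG

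The half-sites of *Hdac7* and *Dnmt3a* began at positions -179 and -76 from their starts, which are internal to both genes. Only 1 of the 4 *Hdac7* windows and 1 of the 3 *Dnmt3a* windows held one. RefSeq gave 79 windows for 55 of the 67 genes, and 11 of these windows (13.9%) held a half-site on either strand, beside 12.2% of the windows of all listed genes and 16.3% of all promoters. The full element GGTCANNNTGACC, whose arms overlap these half-sites but need not hold all of their letters, was in 0 windows of the 55 genes, in 0.0144% of the windows of listed genes and in 0.07% of all promoters. The enzymes' windows were rich in CG: their median ratio of observed to expected CG was 0.815, against 0.733 for listed genes and 0.384 for all promoters. The windows shown span that range, from 0.185 in *Hdac7* and 0.468 in *Dnmt3a* to 0.66 in *Hdac11* and 0.839 in *Kmt2a*, with 36 CG in the last. A match of letters is a description and not a bound site.

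Levels between genes are given as log2 of CPM per kilobase of the longest annotated transcript, the mean of 6 libraries. *Hdac11*, which encodes the only class IV deacetylase, stood first at 7.09, at rank 357 of the 13881 genes with a length, and it was above *Setd3* by 1.31 ± 0.07 (SD of the log2 ratio over 6 libraries) and in 6 of 6. *Setd3*, whose product methylates actin, was next at 5.78, followed by *Sirt2* at 5.55, *Hdac2* at 5.19, *Hdac5* at 5.14, *Kat7* at 5.03, *Hdac3* at 5.0, *Kdm1a* at 4.88, *Kat2a* at 4.87 and *Kat5* at 4.68. These same 10 genes were the first 10 when all exonic bases were used as the length, although their order moved: *Hdac3* was above *Hdac2* in 6 of 6 libraries by all exonic bases and below it in 6 of 6 by the longest transcript. At the other end were *Kdm1b* at 0.78, *Ezh2* at 0.46, *Kdm4d* at -0.37 and *Tet1* at -1.05. The median over the 67 genes was 3.13, close to the 2.97 of all genes.

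**Figure D1:**
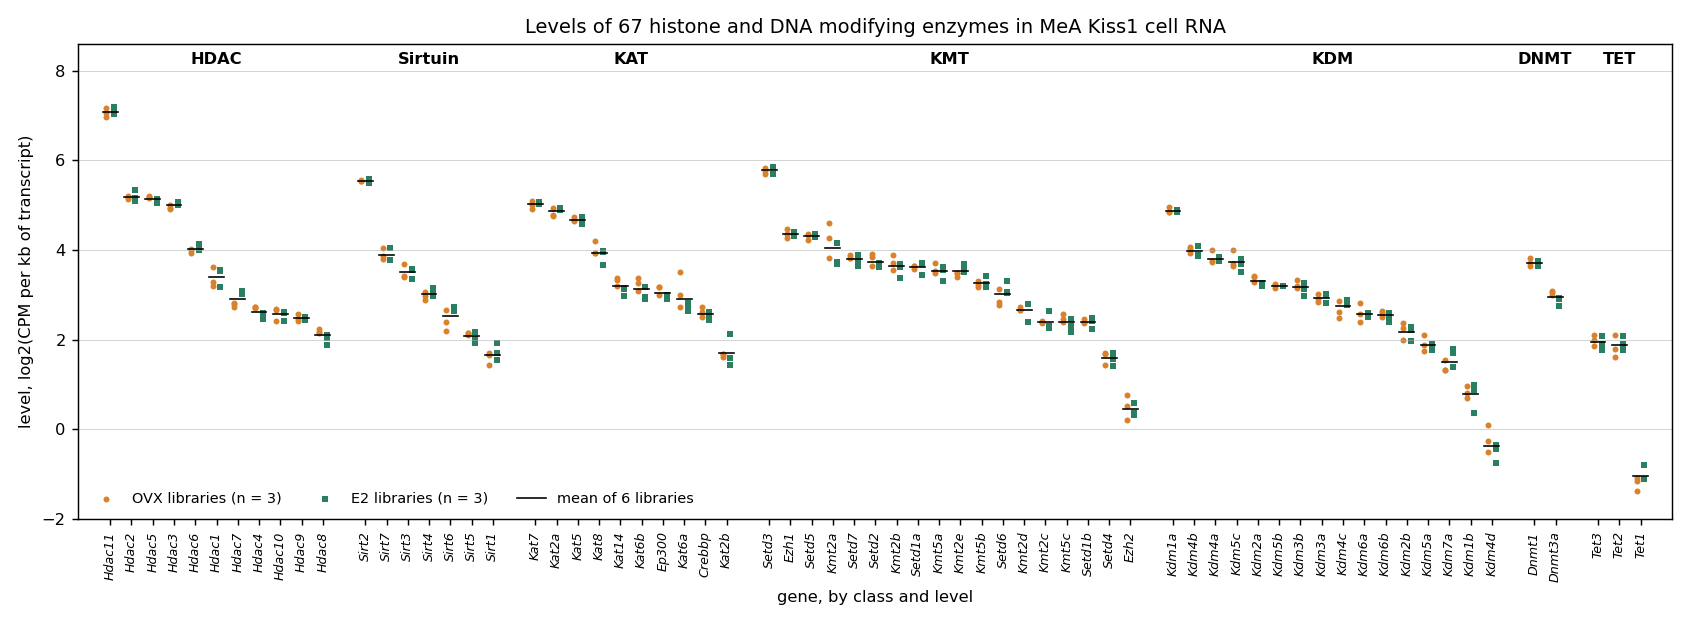
Level of each of the 67 genes, as log2 of CPM per kilobase of the longest transcript (vertical axis), by enzyme class and in order of level within it. Each gene has 3 OVX points, 3 E2 points and a line at the mean of the 6 libraries, and the spread between libraries is small beside the range from *Hdac11* at 7.09 to *Tet1* at -1.05.

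Some close relatives with the same activity were far apart and others were not. *Ezh1*, a catalytic subunit of the Polycomb complex that methylates histones at silent genes, was at 4.36, and its relative *Ezh2*, which predominates in dividing cells, was 3.90 ± 0.23 log2 units lower, in 6 of 6 libraries. Of 6 markers of dividing cells *Top2a*, *Cdk1* and *Ccnb1* were not listed, and the other 3 summed to a CPM of 48.5 to 51.3 in every library. *Kdm1a*, the flavin-dependent demethylase of corepressor complexes, exceeded *Kdm1b* by 4.09 ± 0.24. *Kat2a* exceeded *Kat2b*, the other acetyltransferase of that family, by 3.18 ± 0.24, and *Hdac2* exceeded *Hdac1*, with which it shares its complexes, by 1.80 ± 0.19. All 3 pairs had the same order in 6 of 6 libraries. By contrast *Tet3* and *Tet2* differed by 0.07 ± 0.26, with *Tet3* above in 3 of 6, and the demethylases of the Polycomb mark *Kdm6a* and *Kdm6b* differed by 0.03 ± 0.13, also in 3 of 6. By the longest transcript neither pair differed beyond its spread. By all exonic bases *Tet3* was above *Tet2* in 6 of 6 libraries, by 0.34 ± 0.26. The log2 ratio of *Kdm6a* to *Kdm6b* was then -0.41 ± 0.13, below 0 in 6 of 6, so that the order within these pairs depends on the length used. So did that of *Kat6b* and *Kat6a*, with a log2 ratio of 0.21 ± 0.19 by the longest transcript and -0.91 ± 0.19 by all exonic bases.

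The 8 genes with an unadjusted p under 0.05 were unequal in direction: 1 of them was higher with E2 (1.49%, beside 4.21% of all genes) and 7 were lower (10.4%, beside 4.34%). The higher one was *Hdac7*, and the lower ones were *Dnmt3a*, *Hdac4*, *Kat6b*, *Kat14*, *Kmt2a*, *Kat6a* and *Ep300*. The 3 OVX and 3 E2 values did not overlap for 9 genes (13.4%), a share like the 13.7% of all genes: *Hdac7*, *Kmt2e* and *Hdac3* were above the OVX values, and *Dnmt3a*, *Hdac4*, *Kat14*, *Kdm2a*, *Hdac5* and *Hdac8* below them. The count of 8 depended on single libraries, and the share of all genes at that p moved as well. It was 3 of the 67 without OVX replicate 1 (*Hdac7*, *Dnmt3a* and *Hdac4*), beside 6.38% of all genes. It was 4 without E2 replicate 1 (6.03% of all genes) and 4 without E2 replicate 2 (6.63%). Without the mean-variance trend it was 5 (7.32% of all genes), and *Kat6b*, *Kmt2a*, *Kat6a* and *Ep300* were not among them. With robust empirical Bayes in limma it was 6 (8.28% of all genes), without *Kmt2a* and *Kat6a*. The direction changed too: 4 of 8 were lower without OVX replicate 2, 1 of 4 without E2 replicate 2 and 3 of 5 without the trend.

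Over all 67 genes, 44 (65.7%) had a lower mean with E2 and 23 a higher one, and 48.9% of all genes were lower. The median difference was -0.03, beside 0.003 for all genes. That shift did not separate the groups. The median deviation of the 67 genes from their own means was 0.018, 0.023 and -0.034 in OVX replicates 1, 2 and 3 and -0.016, -0.053 and 0.029 in E2 replicates 1, 2 and 3, so that the third library of each group lay on the other group's side.

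**Figure D2:**
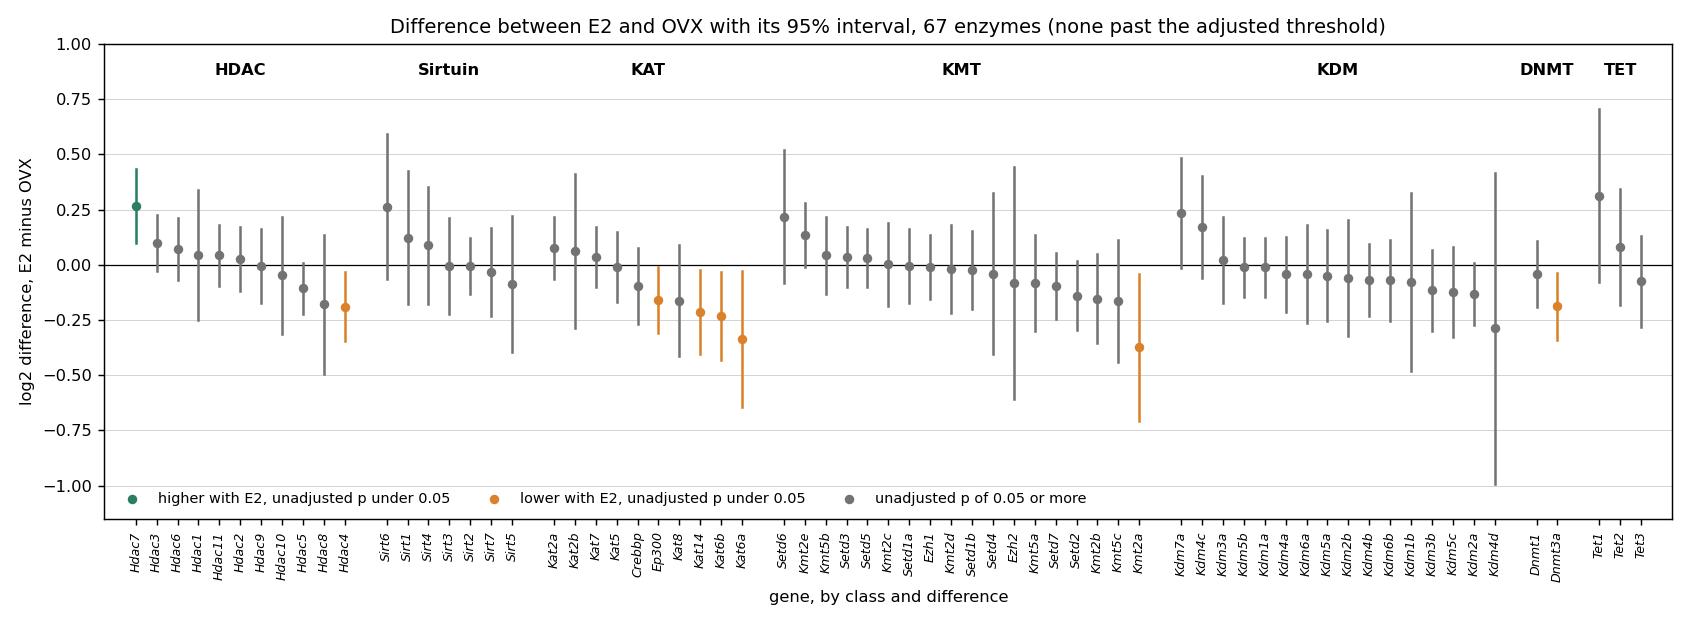
Log2 difference (E2 minus OVX, vertical axis) of each of the 67 genes with its unadjusted 95% interval (bars), by enzyme class and in order of the difference. The 8 genes with an unadjusted p under 0.05 are coloured, 1 of them above 0 and 7 below, and no gene passed the adjusted threshold.

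Among the 11 zinc-dependent deacetylases 6 were higher with E2 and 5 lower, with a median difference of 0.03. *Hdac7* encodes a class IIa deacetylase, a group that moves between nucleus and cytoplasm and restrains MEF2 factors. Its log2 CPM was 5.10, 5.16 and 5.20 in the OVX libraries and 5.40, 5.39 and 5.46 in the E2 libraries. All 3 E2 values were above all 3 OVX values, by more than the spread within either group. The difference was 0.27 ± 0.08 (SE), a 1.20-fold higher level with a 95% interval of 1.07 to 1.35 (adjusted p = 0.285 in limma), and it kept an unadjusted p under 0.05 with any 1 library left out. The gene lies on the minus strand at chr15:97792664-97844502 (GRCm38) and 29 of its exonic bases are shared with *Slc48a1* on the other strand.

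*Hdac4* belongs to the same class IIa. It was at 5.75, 5.72 and 5.75 in OVX and at 5.62, 5.47 and 5.56 in E2, so that the groups did not overlap in the direction opposite to *Hdac7*. Its difference was -0.19 ± 0.07 (SE, adjusted p = 0.465 in limma). Of its exonic bases 22.4% are shared with a lincRNA model on the opposite strand, and the library kit did not keep strand. *Hdac5*, the most abundant class IIa gene per kilobase, was also below in every E2 library, with 7.63, 7.61 and 7.65 in OVX and 7.50, 7.50 and 7.57 in E2, and a difference of -0.11 ± 0.05 (adjusted p = 0.62 in limma). *Hdac9*, the other class IIa gene, had a difference of -0.005. The log2 ratio of *Hdac5* to *Hdac7* per kilobase accordingly had a mean of 2.41 in OVX and 2.04 in E2.

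Of the class I deacetylase genes, whose products mostly work in corepressor complexes, *Hdac3* and *Hdac8* had groups that did not overlap, in opposite directions. *Hdac3*, the enzyme of the NCoR and SMRT complexes, was at 6.85, 6.79 and 6.75 in OVX and 6.85, 6.91 and 6.92 in E2, a difference of 0.10 (E2 higher) in which the closest values of the groups were equal at 2 decimals. *Hdac1* and *Hdac2* had differences of 0.05 and 0.03. *Hdac8* was low, at 3.36, 3.33 and 3.42 in OVX and 3.29, 3.21 and 3.07 in E2, and its difference of -0.18 had an interval from -0.49 to 0.14. *Hdac11* was at 8.39, 8.46 and 8.57 in OVX and 8.45, 8.61 and 8.49 in E2. These overlapped, and the interval of its difference was -0.09 to 0.18. Of its exonic bases 15.4% are shared with an unlisted model on the opposite strand. *Hdac6*, a cytoplasmic tubulin deacetylase, and *Hdac10* had differences of 0.07 and -0.05.

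The 7 sirtuins had no gene with an unadjusted p under 0.05, beside 8.56% of all genes, 3 being higher with E2 and 4 lower. *Sirt2*, a mostly cytoplasmic deacetylase that myelinating cells express strongly, hardly varied, at 6.64, 6.63 and 6.63 in OVX and 6.66, 6.64 and 6.57 in E2. Its difference was -0.006 ± 0.06 (SE) and its interval -0.13 to 0.12, while the summed oligodendrocyte markers ranged from 1563 to 2408 over the same libraries. What part those cells had in its level was not tested. *Sirt1*, the best known nuclear sirtuin, was the lowest of the class by the longest transcript, at 1.66 per kilobase and 3.89 ± 0.16 below *Sirt2*. By all exonic bases the lowest was *Sirt5* at 0.75, and *Sirt1*, at 1.39, was 2.90 ± 0.16 below *Sirt2*. It was at 3.84, 3.81 and 3.59 in OVX and 4.07, 3.68 and 3.86 in E2, with overlap. *Sirt6* had the largest difference of the class, 0.26 ± 0.15, from 3.31, 3.10 and 3.57 in OVX to 3.64, 3.57 and 3.56 in E2. OVX replicate 3 lay among the E2 values, and the interval ran from -0.06 to 0.59. The mitochondrial *Sirt3*, *Sirt4* and *Sirt5* and the nucleolar *Sirt7* differed by -0.005, 0.09, -0.09 and -0.03.

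The acetyltransferases held 4 of the 7 genes lower at an unadjusted p under 0.05, that is 4 of their 10, beside 4.34% of all genes, and the median difference of the 10 was -0.13. Without OVX replicate 1, 0 of these 4 had such a p. *Kat6b* and its relative *Kat6a* encode acetyltransferases of histone H3. *Kat6b* was at 6.33, 6.21 and 6.02 in OVX and 5.84, 5.89 and 6.13 in E2, and *Kat6a* at 6.70, 6.19 and 5.92 in OVX and 5.97, 5.83 and 6.02 in E2. In both genes OVX replicate 3 fell among the E2 values and OVX replicate 1 was the highest library. The differences were -0.23 ± 0.09 for *Kat6b* and -0.34 ± 0.14 for *Kat6a* (SE, adjusted p = 0.494 and 0.534 in limma). Without OVX replicate 1 the *Kat6a* difference was -0.12.

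*Kat14*, a subunit of a complex built around Kat2a or Kat2b, did separate the groups, with 5.30, 5.25 and 5.13 in OVX and 4.91, 5.07 and 5.05 in E2. Its difference was -0.21 ± 0.09 (SE, adjusted p = 0.505 in limma), and 14.7% of its exonic bases are shared with *Pet117* on the same strand. *Ep300*, a coactivator of the estrogen receptor that acetylates histones at enhancers, was at 6.43, 6.42 and 6.26 in OVX and 6.21, 6.17 and 6.26 in E2. Only OVX replicate 3 and E2 replicate 3 met, and the difference was -0.16 ± 0.07 (SE, adjusted p = 0.552 in limma), a 0.897-fold level with an interval from 0.809 to 0.994. Its partner *Crebbp* had a difference of -0.10, with an interval of -0.27 to 0.08, and lay 0.47 ± 0.11 below *Ep300* per kilobase in 6 of 6 libraries.

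*Kat7*, which acetylates histones H3 and H4, was the most abundant acetyltransferase gene per kilobase of the longest transcript, at 5.03, while by all exonic bases *Kat2a*, at 4.78, was above *Kat7*, at 4.39. It was at 6.85, 6.75 and 6.92 in OVX and 6.90, 6.87 and 6.85 in E2, with a difference of 0.04. *Kat2b* was the least abundant, and its E2 replicate 1 stood apart at 4.35 from 3.66 and 3.81, with 3.91, 3.90 and 3.82 in OVX. Its difference of 0.06 was -0.14 without that library. *Kat2a*, *Kat5* and *Kat8* had differences of 0.08, -0.01 and -0.16.

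The 18 methyltransferases had 1 gene with an unadjusted p under 0.05 (5.56%, beside 8.56% of all genes), and 12 of them were lower with E2 (66.7%, beside 48.9%). *Kmt2a* is one of the MLL enzymes that mark active promoters and is needed for some forms of memory. It had the highest CPM of the class, at 8.64, 8.31 and 7.86 in OVX and 7.73, 7.77 and 8.20 in E2. The groups overlapped, since OVX replicate 3 was below E2 replicate 3. The difference was -0.37 ± 0.16 (SE), a 0.772-fold level with an interval from 0.613 to 0.973 (adjusted p = 0.516 in limma). It ranged from -0.58 to -0.19 as 1 library at a time was left out, smallest without OVX replicate 1. Its unadjusted p in limma was not under 0.05 with robust empirical Bayes, nor without the mean-variance trend. The sum of the forebrain excitatory markers, mostly *Slc17a7*, was 1137, 957.2 and 880.3 in OVX and 724.6, 668.2 and 871.1 in E2. OVX replicates 1 and 2 were highest, as for *Kmt2a*. The part of those cells in the result was not tested.

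The other MLL genes did not show a difference of that size. *Kmt2b* had -0.15, with an interval from -0.35 to 0.05, and *Kmt2c* and *Kmt2d*, which act at enhancers, had 0.002 and -0.02. *Kmt2e*, an MLL relative that lacks clear methyltransferase activity, was higher in every E2 library, with 6.36, 6.37 and 6.28 in OVX and 6.56, 6.38 and 6.47 in E2. That difference was 0.14 ± 0.07 (SE, adjusted p = 0.604 in limma). *Setd3* was at 7.31, 7.37 and 7.44 in OVX and 7.46, 7.46 and 7.30 in E2, and *Ezh2* at 1.69, 2.23 and 2.0 in OVX and 2.06, 1.79 and 1.83 in E2, both with overlap. Their differences were 0.03 and -0.08, the second with an interval as wide as -0.61 to 0.44. The 11 others (*Ezh1*, *Kmt5a*, *Kmt5b*, *Kmt5c*, *Setd1a*, *Setd1b*, *Setd2*, *Setd4*, *Setd5*, *Setd6* and *Setd7*) ran from -0.16 for *Kmt5c* to 0.22 for *Setd6*. Of the exonic bases of *Setd1a* 51.8% are shared with another listed coding model, so its level is uncertain.

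Of the 16 demethylases 13 (81.25%) were lower with E2, beside 48.9% of all genes, and genes of a class are not replicates. None of the 16 had an unadjusted p under 0.05, beside 8.56% of all genes. *Kdm2a*, whose product binds unmethylated CG, came closest, with 6.51, 6.38 and 6.53 in OVX and 6.30, 6.35 and 6.36 in E2. The groups were just apart, and the difference was -0.13 ± 0.07 (SE, adjusted p = 0.604 in limma). *Kdm1a* was at 6.55, 6.45 and 6.45 in OVX and 6.47, 6.45 and 6.49 in E2, a difference of -0.01 with an interval from -0.15 to 0.12. *Kdm4d*, the lowest of the class, was at 1.17, 1.51 and 0.92 in OVX and 0.98, 0.68 and 1.08 in E2, and its difference of -0.29 had an interval of -0.99 to 0.42, the widest of the 67. The 3 higher genes were *Kdm7a* at 0.23, *Kdm4c* at 0.17 and *Kdm3a* at 0.02. The remaining 10 (*Kdm1b*, *Kdm2b*, *Kdm3b*, *Kdm4a*, *Kdm4b*, *Kdm5a*, *Kdm5b*, *Kdm5c*, *Kdm6a* and *Kdm6b*) lay between -0.12 and -0.01. *Kdm5c* and *Kdm6a* are X-linked, as are *Hdac6* and *Hdac8*.

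Of the DNA methyltransferases, the de novo enzyme gene *Dnmt3a* was lower in every E2 library. Its log2 CPM was 6.27, 6.34 and 6.37 in OVX and 6.18, 6.03 and 6.21 in E2. The difference was -0.19 ± 0.07 (SE), a 0.878-fold level with an interval from 0.79 to 0.975 (adjusted p = 0.445 in limma). *Dnmt1*, which copies methylation to new strands when DNA replicates, was at 6.38, 6.26 and 6.19 in OVX and 6.19, 6.21 and 6.30 in E2, with overlap and a difference of -0.04. Per kilobase *Dnmt1* was above *Dnmt3a* by 0.74 ± 0.13 in 6 of 6 libraries. *Dnmt3a* lies on the plus strand at chr12:3806007-3914443.

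The TET genes, which start the removal of DNA methylation, were low per kilobase of the longest transcript. *Tet1* was at -1.05, *Tet2* at 1.88 and *Tet3* at 1.95, beside a median of 2.97 over all genes. In log2 CPM only *Tet1* was below the median of all genes, 4.76. *Tet1* was at 2.47, 2.68 and 2.75 in OVX and 2.74, 3.06 and 3.06 in E2. Only E2 replicate 1 fell below an OVX value, and the difference of 0.31 ± 0.18 (SE) was the highest of the 67 but had an interval from -0.08 to 0.71 (adjusted p = 0.697 in limma). *Tet2* was at 5.30, 5.0 and 4.81 in OVX and 5.09, 4.97 and 5.29 in E2, and *Tet3* at 5.31, 5.55 and 5.44 in OVX and 5.52, 5.21 and 5.35 in E2. Both overlapped, with differences of 0.08 and -0.07. Per kilobase *Tet3* exceeded *Tet1* by 3.0 ± 0.30 and *Tet2* exceeded it by 2.93 ± 0.32.

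**Figure D3:**
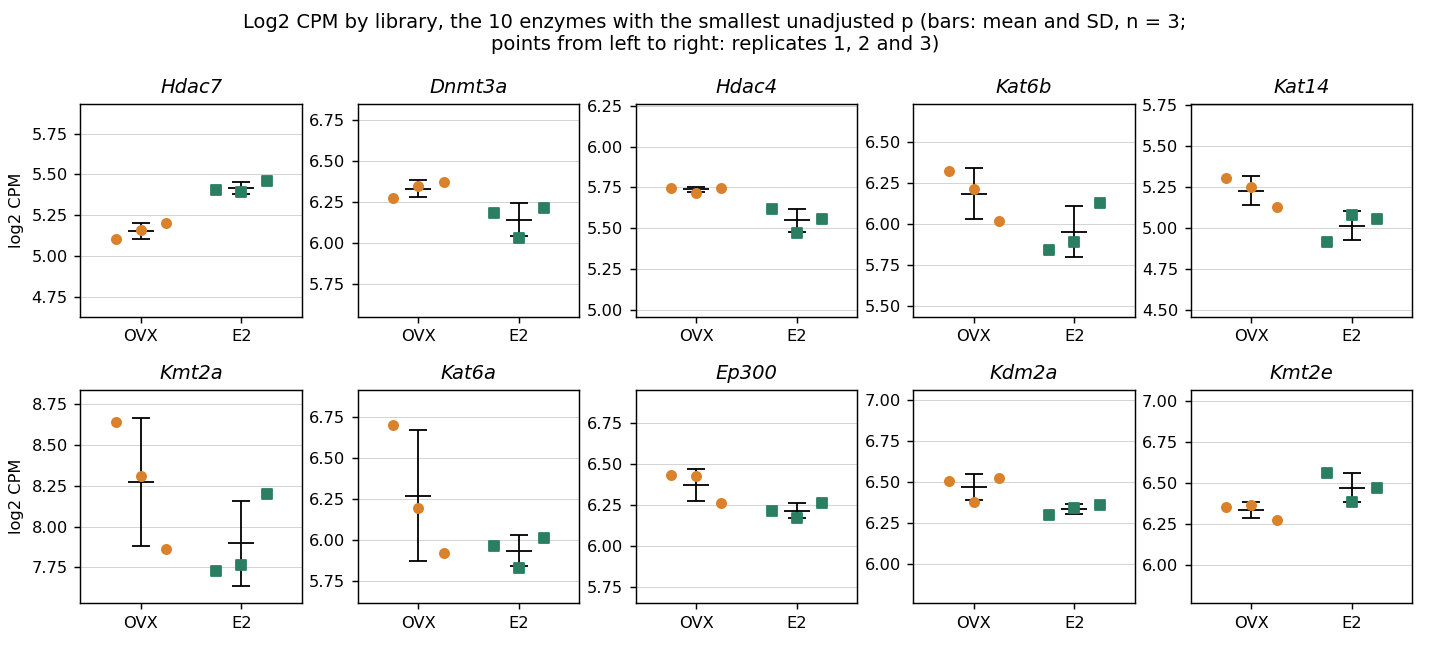
Log2 CPM (vertical axis, each panel spanning 1.3 log2 units) in each of the 3 OVX and 3 E2 libraries for the 10 genes with the smallest unadjusted p, with the mean and SD of each group. *Hdac7*, *Dnmt3a*, *Hdac4*, *Kat14*, *Kdm2a* and *Kmt2e* have groups that do not overlap, while OVX replicate 1 stands high in *Kmt2a* and *Kat6a*.

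Transcript length was not used in the choice of genes, and 5 of the 7 lower genes had a long mRNA. Measured by the longest annotated transcript, the 67 genes had a median of 5037 nt and all listed genes 3516 nt, and 18 of the 67 had one of 8000 nt or more. Of these 18, 5 were lower at an unadjusted p under 0.05 (*Kmt2a*, *Kat6a*, *Ep300*, *Dnmt3a* and *Hdac4*) and 0 were higher, with a median difference of -0.08. Among all 890 genes of that length 8.65% were lower and 4.27% higher at that p, and among the 2538 genes under 2000 nt 2.6% and 3.78%. *Kat6b* and *Kat14*, the other lower genes, had transcripts of 7699 and 3801 nt. Of the 18, those higher with E2 were *Tet1* (14369 nt), *Kdm7a* (9566 nt), *Tet2* (9179 nt) and *Kmt2c* (14967 nt). Their differences were 0.31, 0.23, 0.08 and 0.002, each with an interval that included 0. The rest of the 18 were lower, and *Kmt2d*, the longest at 19823 nt, differed by -0.02.

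As a description, Spearman's rho between difference and length was -0.06 over the 13881 genes and -0.19 over the 67, all from the same 6 libraries. Over genes with a mean log2 CPM above 3 it was -0.095 for all genes and -0.30 for the enzyme genes. The libraries differed in long genes as well. The median deviation of 791 genes of 8000 nt or more with a mean log2 CPM above 3 was 0.0044, 0.051 and -0.020 in OVX replicates 1, 2 and 3 and -0.0054, -0.067 and 0.032 in E2 replicates 1, 2 and 3, so that the groups overlapped. The part of RNA length or integrity in the differences was not tested.

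**Figure D4:**
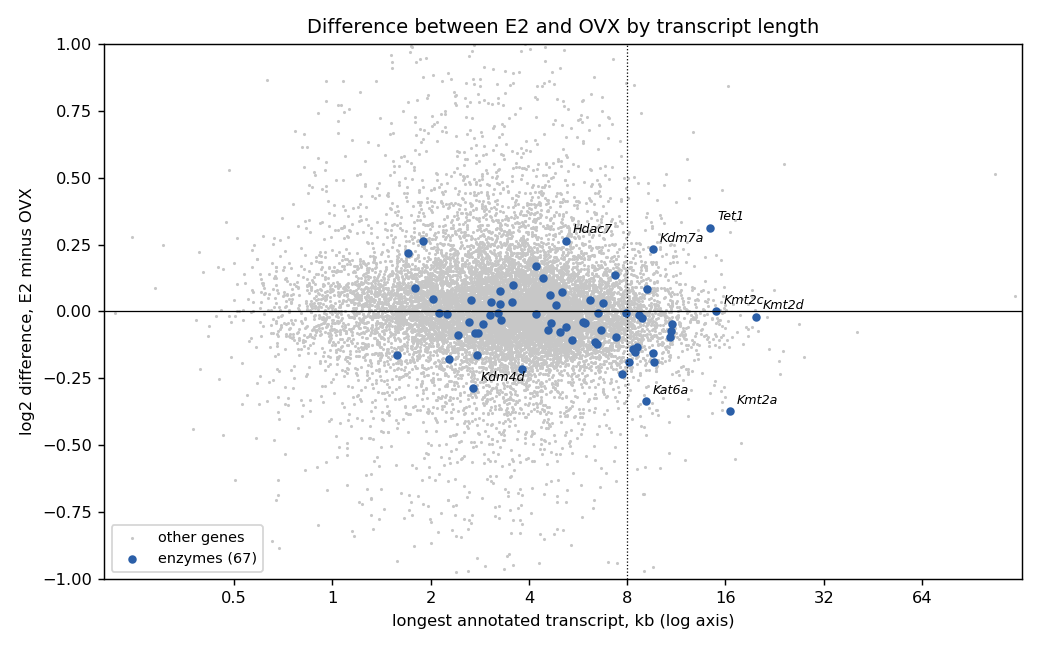
Log2 difference (E2 minus OVX, vertical axis) against the longest annotated transcript in kb (log axis) for the 67 enzyme genes and all other genes, with a dotted line at 8 kb. Right of the line more enzyme genes lie below 0 than above, and 98 other genes beyond 1 log2 unit are not drawn.

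Genes that work with these enzymes were read from 9 lists of 137 genes, of which 133 were in the table. None passed the threshold. At an unadjusted p under 0.05 there were 11 of the 133 (8.27%, beside 8.56% of all genes), 8 of them lower (6.02%, beside 4.34%) and 3 higher (2.26%, beside 4.21%), and the median difference of the 133 was -0.02. *Epop*, a partner of the Polycomb complex, was at 5.24, 5.37 and 5.16 in OVX and 4.54, 4.57 and 5.09 in E2. The groups did not overlap, and the difference was -0.52 ± 0.13 (SE, adjusted p = 0.165 in limma). Without E2 replicate 3 its adjusted p was 0.0114 in limma, so that library decides the call. *Prmt8*, a brain-enriched arginine methyltransferase, was at 6.33, 6.14 and 5.87 in OVX and 5.81, 5.47 and 5.85 in E2, a difference of -0.40 ± 0.12 (adjusted p = 0.281 in limma).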

How the data were processed

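RNA-seq values were taken for 6 MeA pulldown libraries, 3 OVX and 3 E2, grouped by the titles in the labels. The deposited values were log2 CPM, which the authors made by quality control (FastQC 0.11.8), trimming (Trimmomatic 0.38), alignment to GRCm38 (STAR 2.6.0a), counting per gene, a filter on low expression limited to protein-coding genes, TMM scaling and voom. Reads came from an unstranded polyA library. A second deposited table held the authors' own fold changes and p-values and was not used. Library sizes were scaled totals read from the lowest value of each library.

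The voom weights are not in the table, so log2 CPM were fitted with limma 3.58.1 (R 4.3.3) and a mean-variance trend, on all 13886 genes, treatment being the single term, with 2-sided p-values that were adjusted over the whole table by the Benjamini-Hochberg method and called under 0.05. Intervals of 95% are unadjusted. The script was tested on simulated data. With 3 against 3 libraries an exact permutation test cannot go below 0.1. Replicates were separate pools. In limma each gene's variance was drawn towards that of genes of similar level, with 9.55 prior beside 4 residual degrees of freedom. SEs and p-values therefore do not measure only the spread between pools of that gene. Every ± of a difference between E2 and OVX is such a moderated SE.

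Gene coordinates, the lengths of transcripts and overlaps of exons were taken from GENCODE M21 (GRCm38) and promoters from RefSeq. Values by library were given for the 10 genes with the smallest p, the largest difference, the highest and the lowest level per kilobase of each class, all DNA methyltransferases and TET genes, and partner genes with an unadjusted p under 0.01. *Hdac3*, *Hdac5* and values of other genes named without libraries were added after their values were seen. The genes and lists were chosen with earlier results of these data known. Cell type markers were 10 lists. Alternatives were other weights, scalings, filters, pseudocounts, no mean-variance trend, robust empirical Bayes, a replicate block and each library left out. The values of 1 partner gene are not reported here.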

Additional observations from a re-analysis of the deposited data

How the results depend on the processing

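None of the 67 genes passed the threshold under any of 17 alternatives, and the first 10 genes by level per kilobase were the same under each of 9. The smallest adjusted p of the 67 in limma was 0.117, for *Kmt2a* without OVX replicate 3. Without the mean-variance trend, 0 of all genes passed in limma. An unadjusted p under 0.05 was then found for 1017 of all genes (7.32%) and 5 of the 67. With 1 library left out at a time, 20 to 66 of all genes and 0 to 1 of the partner genes passed. In these fits 3 to 10 of the 67 had an unadjusted p under 0.05, beside 6.03% to 9.76% of all genes. The median difference of the 67 was -0.071 (without E2 replicate 3) to -0.012 (without OVX replicate 1). With a replicate block 35 of all genes and 0 of the 67 passed. There 6 of the 67, all among the 8, had an unadjusted p under 0.05, beside 6.37% of all genes. The smallest adjusted p of the 67 with the block was 0.554 in limma. No label says what libraries of the same number share. Their deviations correlated at -0.02, -0.12 and -0.08 across genes, and those of libraries with different numbers at -0.07 to 0.16. Such values cannot settle whether libraries were handled in pairs. Of 459 values for the 27 enzyme genes described by library, 448 kept their direction and 11 reversed, and each of these was with 1 library left out. As 1 library at a time was left out, the reversed differences ranged from -0.0047 to 0.091 for *Hdac11* (below 0 without OVX replicate 1 and E2 replicate 2), -0.085 to 0.0095 for *Dnmt1* and -0.030 to 0.023 for *Kdm1a* (above 0 without OVX replicate 1), -0.010 to 0.078 for *Kat7* and -0.22 to 0.047 for *Ezh2* (reversed without OVX replicate 2), -0.031 to 0.21 for *Tet2* (below 0 without OVX replicate 3 and E2 replicate 3), -0.14 to 0.20 for *Kat2b* (below 0 without E2 replicate 1), -0.15 to 0.0021 for *Tet3* (above 0 without E2 replicate 2) and -0.024 to 0.021 for *Sirt2* (above 0 without E2 replicate 3). The cause was not tested. The median SE of the 67 differences was 0.09, which limits what 3 libraries a group can show.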

Other observations

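No partner list held a gene past the threshold in limma. Of all genes 48.9% were lower with E2 and 8.56% had an unadjusted p under 0.05. Of 24 subunits of deacetylase corepressor complexes, 16 were lower with E2 and 8 higher, with 1 at an unadjusted p under 0.05, *Ncor1*, the scaffold that carries Hdac3, at a difference of -0.20 ± 0.07 (SE). All 12 COMPASS subunits, which serve the MLL enzymes, were above that p, with 6 higher and 6 lower, and so were all 9 methyl-CpG-binding proteins, with 5 higher and 4 lower. Of the 8 listed Polycomb subunits, *Jarid2* was higher in every E2 library, with 5.26, 5.33 and 5.36 in OVX and 5.49, 5.55 and 5.50 in E2, while *Epop* was lower in each. Of 27 subunits of acetyltransferase complexes 10 were higher and 17 lower, of 19 other histone methyltransferases 9 and 10, of 9 arginine methyltransferases 3 and 6, of 12 other JmjC-domain enzymes 4 and 8, and of 13 partners of DNA methylation and base excision 5 and 8. *Ncor1* and *Jarid2* were named after their values were seen. In the remaining marker lists, the 4 listed erythroid markers were higher with E2 (summed CPM of 120.6 to 228.1 in OVX and 280.3 to 447 in E2, with 2 past the threshold in limma). The 6 astrocyte markers all had a higher mean with E2, but their sums overlapped (813.4 to 1020 in OVX and 972.2 to 1169 in E2). The 6 choroid plexus markers all had a lower mean, and their sums overlapped as well (690.1 to 1078.5 in OVX and 394.9 to 1019 in E2). Of 6 markers each, 4 neuron, 4 inhibitory neuron, 2 microglia, 5 endothelial and mural and 5 oligodendrocyte markers were higher. The part of these cells in the differences of the 67 enzyme genes was not tested.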
